A study of Mus musculus with 12 samples.

Results

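Transcripts of 10 genes of fatty acid synthesis, desaturation and activation were examined in B cells of the Peyer's patches (PP), the lymphoid follicles of the gut wall, from 6 sham controls and 6 stroke mice. The members were taken by gene name from the table of 36175 genes, and all 10 were found. They were the synthesis genes Acly, Acaca and Fasn, the desaturase genes Scd1, Scd2 and Fads1, and the long-chain acyl-CoA synthetase genes Acsl1, Acsl3, Acsl4 and Acsl5. Of these, 9 were among the 12590 genes tested, those at 1 or more in each of the 12 mice. Fads1 missed this limit through a single mouse, sham control 3, at 0.99. All mice were male wild-type C57BL/6JHsd animals, 10 to 12 weeks old according to the methods. The stroke mice, labelled as brain injury, had the middle cerebral artery blocked by a filament for 1 h and then reopened. In sham controls the artery of the brain was not blocked, and a filament was placed only briefly in a neck artery. PP B cells were purified with magnetic beads 18 h after surgery and sequenced in bulk, 1 sample for each mouse, to ask how stroke changed the transcripts of the B cells that remained.

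Fatty acids are built in the cytosol from citrate that leaves the mitochondria. Acly splits citrate to acetyl-CoA, Acaca carboxylates acetyl-CoA to malonyl-CoA, and Fasn joins these units to palmitate. Scd1 and Scd2 place a first double bond in saturated chains, whereas Fads1 desaturates polyunsaturated chains. The Acsl enzymes couple long-chain fatty acids to coenzyme A, the step needed before a chain can be stored, put into membranes or burned. Activated B cells are known to raise lipid synthesis as they grow, and Acsl5 is also known as an abundant gene of the intestinal epithelium.

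The deposited table gives normalized TPM by its label, a level per transcript length, so that levels can be compared between genes. Their sums differed between mice, from 559570 in sham control 6 to 1404340 in sham control 1, and the read depth of each mouse is unknown. The 7 B cell markers Cd79a, Cd79b, Ms4a1, Pax5, Cd22, Cr2 and Fcer2a summed to between 2169 and 2881 in sham controls and between 1351 and 2506 in stroke mice, with stroke mouse 5 the lowest. Of these, 2 were lower in stroke mice at an unadjusted limma p under 0.05, Cr2 (log2 fold change -0.83) and Fcer2a (-0.72), which mark mature follicular and marginal zone B cells, compared with 1.69% of all genes tested. Their part in the members' values was not tested. The 11 intestinal epithelial markers ranged far more widely, from 37.6 to 2475 in sham controls and from 35.0 to 1335 in stroke mice. Sham controls 1 and 2 were the highest, at 2475 and 2175. According to the methods, the first bead kit leaves a few gut epithelial and vessel cells among the B cells, which a second step with CD45 beads was meant to reduce. The methods report nearly pure B cells after both steps. The 6 endothelial markers summed to between 78.5 and 105 in sham controls and between 87.3 and 107 in stroke mice. Of these, only Pecam1, which leukocytes also express, could be tested, and it was not called, while Kdr, Tek and Emcn were under 1 in every mouse. Adipocyte markers summed to at most 16.6 in any mouse, and the defining genes Adipoq, Plin1, Cfd, Fabp4 and Lep were under 1 in all 12. In bulk samples, fewer cells of a type and less RNA per cell cannot be told apart.

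Scd1 had the highest level of the 10 genes in all 12 mice, with a mean over all mice of 327, above 97.8% of the genes tested. Acsl5 followed at 93.2, then Acly at 49.4, Acaca at 40.3, Scd2 at 33.4, Fasn at 31.2, Acsl1 at 12.4, Acsl3 at 11.02, Acsl4 at 10.7 and Fads1 at 2.42. Within a mouse, Scd1 was above Acsl5 in 12 of 12 mice, Acsl5 above Acly in 11, Fasn above Acsl1 in 12 and Acsl4 above Fads1 in 12. The neighbours Acly and Acaca (8 of 12 mice), Acaca and Scd2 (9 of 12), Scd2 and Fasn (7 of 12) and Acsl1 and Acsl3 (8 of 12) had no order that held in all mice. Acsl3 lay above Acsl4 in 5 of 6 sham controls but in only 1 of 6 stroke mice, and Acsl1 lay above Acsl3 in 2 of 6 sham controls and in 6 of 6 stroke mice.

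**Figure D1:**
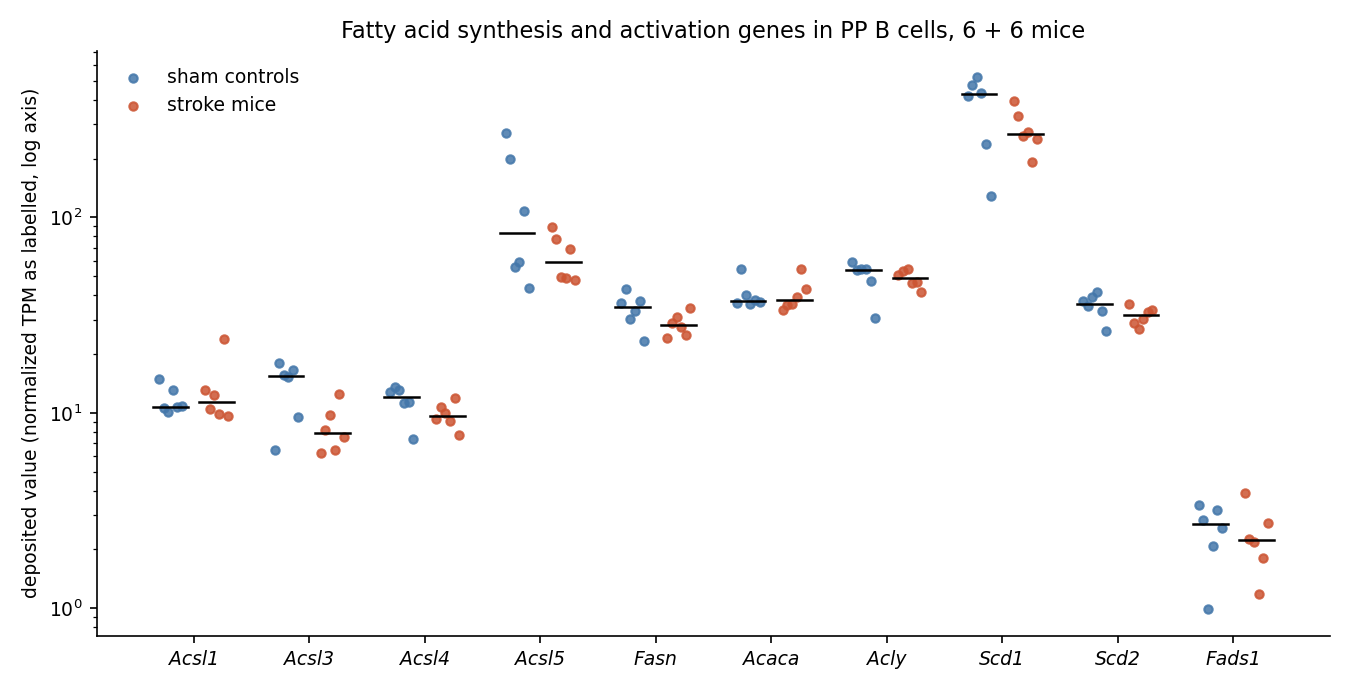
Deposited values of the 10 genes on a log axis, 1 point for each of 6 sham controls and 6 stroke mice, with the median of each group as a line. Scd1 lies highest in both groups (129 to 521 in sham controls), Fads1 lowest, and the groups overlap for every gene.

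Acsl3, a synthetase of the endoplasmic reticulum and of growing lipid droplets, was the only member lower in stroke mice at an unadjusted p under 0.05. Its values in sham controls 1 to 6 were 6.44, 18.04, 15.6, 15.3, 16.7 and 9.48. In stroke mice 1 to 6 they were 6.25, 8.18, 9.79, 6.44, 12.5 and 7.56. Thus 4 of 6 sham controls lay above the highest stroke mouse, while sham controls 1 and 6 lay among the stroke mice, and the groups overlapped. Sham controls had a mean of 13.6 ± 4.56 (SD, n = 6) and stroke mice one of 8.45 ± 2.36 (SD, n = 6). On the log2(value + 0.5) scale, limma gave a log2 fold change of -0.61 (SE 0.25), a level of 0.654 times that of sham controls. All 6 stroke mice lay below the mean of the sham controls on this scale. Over all genes tested, 1.69% were lower at this threshold, and 6.12% differed in either direction. With Benjamini-Hochberg adjustment the limma p of Acsl3 was 0.791, and it ranged from 0.141 to 0.991 over the alternatives. The exact two-sided permutation test of Acsl3 over all 924 assignments of the mice gave p = 0.0541, just above the threshold. Acsl3 was one of the genes already known to be lower in these data when the members were chosen.

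The Acsl3 call depended on the scaling and on single mice. When each mouse was rescaled to the same total, the log2 fold change was -0.50 and Acsl3 was no longer called by limma, and the same held without immunoglobulin genes (-0.50). These scalings moved the median log2 fold change of all genes from 0.01 to 0.13 and 0.12. Leaving out 1 mouse at a time gave log2 fold changes from -0.80 to -0.52. The call was kept in 6 of these 12 fits. It was lost without sham control 2 (-0.52), 3 (-0.56), 4 (-0.56) or 5 (-0.54), and without stroke mouse 1 (-0.54) or 4 (-0.55). Without sham controls 1 and 2, which had the most epithelial transcripts, Acsl3 had a log2 fold change of -0.73 and kept the call. Sham control 1 had the lowest Acsl3 value of the sham controls and sham control 2 the highest, so the shift came from these values.

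Acsl3 lies on the forward strand at chr1:78657825-78707743 (GRCm38). A second protein-coding gene, Utp14b, a factor of ribosome biogenesis, starts 213 bases further on the same strand, and 244 bases are exonic in both. Of the 31-base words of Acsl3 transcripts, 4.22% also occur in Utp14b transcripts, so a small part of the reads could belong to either. For the other synthetases, the words shared with any other gene were 9.89% for Acsl1, 7.31% for Acsl5 and 0.0182% for Acsl4. Utp14b was also the gene whose log2 values over the 12 mice were most like those of Acsl3 among all genes tested (Pearson r = 0.87, a description over all mice and both groups). Next came Pak1ip1 (0.84), Zfp26 (0.78), Ccm2 (0.77) and the ribosomal pseudogene Rps27-ps1 (0.76). In sham controls 1 to 6 Utp14b had values of 6.41, 14.8, 9.89, 10.8, 13.7 and 6.73. In stroke mice 1 to 6 it had values of 6.17, 7.43, 5.91, 6.39, 14.0 and 6.59. Both genes were low in sham controls 1 and 6 and highest of the stroke mice in mouse 5. The log2 fold change of Utp14b was -0.40 (exact permutation p = 0.158). None of the 5 genes was called by limma.

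**Figure D2:**
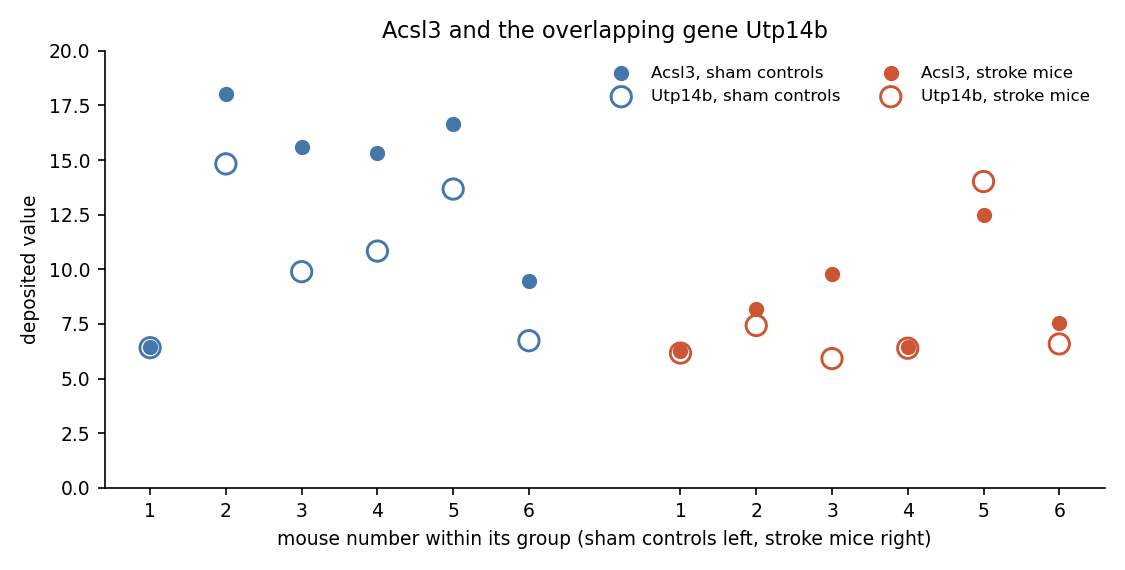
Deposited values of Acsl3 (filled) and Utp14b (open), a gene that overlaps it on the same strand, in each of the 12 mice. Acsl3 is at 15.3 to 18.04 in sham controls 2 to 5 and at 6.44 and 9.48 in sham controls 1 and 6.

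The 250 bases before the RefSeq start site of 4 members are shown because these genes cover the patterns seen: Acsl3 was lower, Acsl5 had the most negative but uncertain fold change, and Fasn and Acly are textbook genes of fatty acid synthesis. Sequences are from RefSeq on GRCm38.p6, on the strand of the gene, 5′ to 3′, with the NF-Y box (CCAAT, or ATTGG on the other strand) and the GC box (GGGCGG, or CCGCCC on the other strand) in capitals.
Acsl3, chr1:78657575-78657824, forward strand: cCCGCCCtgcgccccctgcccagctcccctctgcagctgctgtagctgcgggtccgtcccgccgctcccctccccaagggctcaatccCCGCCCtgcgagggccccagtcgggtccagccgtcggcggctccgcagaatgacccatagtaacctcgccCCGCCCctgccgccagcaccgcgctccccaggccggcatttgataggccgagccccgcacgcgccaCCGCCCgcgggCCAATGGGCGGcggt
Acsl5, chr19:55253119-55253368, forward strand: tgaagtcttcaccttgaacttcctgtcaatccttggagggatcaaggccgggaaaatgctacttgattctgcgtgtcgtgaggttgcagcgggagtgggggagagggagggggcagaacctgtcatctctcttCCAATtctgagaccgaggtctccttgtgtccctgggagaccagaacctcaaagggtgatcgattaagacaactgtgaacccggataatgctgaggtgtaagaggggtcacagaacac
Fasn, chr11:120824548-120824797, reverse strand: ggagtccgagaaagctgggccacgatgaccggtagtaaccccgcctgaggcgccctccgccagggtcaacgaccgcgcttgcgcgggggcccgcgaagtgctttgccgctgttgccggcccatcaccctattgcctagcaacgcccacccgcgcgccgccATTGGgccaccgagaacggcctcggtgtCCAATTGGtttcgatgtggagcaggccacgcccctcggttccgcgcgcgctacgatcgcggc
Acly, chr11:100528001-100528250, reverse strand: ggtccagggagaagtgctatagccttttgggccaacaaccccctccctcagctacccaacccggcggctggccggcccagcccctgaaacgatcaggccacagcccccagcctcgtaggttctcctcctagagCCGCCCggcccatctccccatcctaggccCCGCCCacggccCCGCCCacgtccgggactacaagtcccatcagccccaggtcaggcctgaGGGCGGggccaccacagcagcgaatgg
The Acsl3 stretch held 5 GC boxes and 1 NF-Y box, the last of each side by side just before the start. The Fasn stretch held 3 NF-Y boxes, of which a pair overlapped, and no GC box. Acly held 4 GC boxes and no NF-Y box, and Acsl5 held 1 NF-Y box and no GC box. The RefSeq start of Acsl5 lies inside the gene as annotated by GENCODE (chr19:55251938-55297720), which gives the gene an earlier start.

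RefSeq windows of 300 bases, which also take in the first 50 bases after the start, were found for 7 of the 10 members, with a pair of windows for Acsl1. An NF-Y box lay in 5 of these 8 windows (Acly, Acsl1, Acsl3, Acsl5 and Fasn), compared with 37.4% of all 32851 windows. A GC box lay in 4 (Acly, Acsl1, Acsl3 and Acsl4), compared with 35.7% of all windows. The core of the SRE-1 element (TCACNCCAC on either strand), a site of the sterol-regulated SREBP factors, lay in 1 window, of Acsl1, compared with 1.24% of all windows. These matches are descriptions of the sequence and were not set against the fold changes.

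Acsl5, a synthetase of mitochondria and endoplasmic reticulum, had the most negative log2 fold change of the members, -0.65 (SE 0.41), but it was not called (exact permutation p = 0.206). Its values in sham controls 1 to 6 were 269.9, 199.7, 55.7, 59.01, 108 and 43.6. In stroke mice 1 to 6 they were 89.0, 77.7, 49.5, 48.99, 68.9 and 47.7. Only sham controls 1 and 2 stood apart, while the other 10 mice lay between 43.6 and 108. Sham controls 1 and 2 were also the mice with the highest summed epithelial markers, 2475 and 2175 against 35.0 to 1335 in the other 10. They were also the highest in plasma cell markers (1486 and 1333, against 295 to 1085), in neutrophil and macrophage markers (275 and 182, against 25.9 to 146) and in the total of all values. The part of each of these in the Acsl5 values was not tested. Without these mice, an alternative chosen after seeing the data, the log2 fold change of Acsl5 was -0.03 (SE 0.26), but as they also held the highest Acsl5 values, leaving them out had to move it toward 0 and says nothing of the markers. Of the 11 epithelial markers, 6 could be tested and none passed the threshold in either direction.

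**Figure D3:**
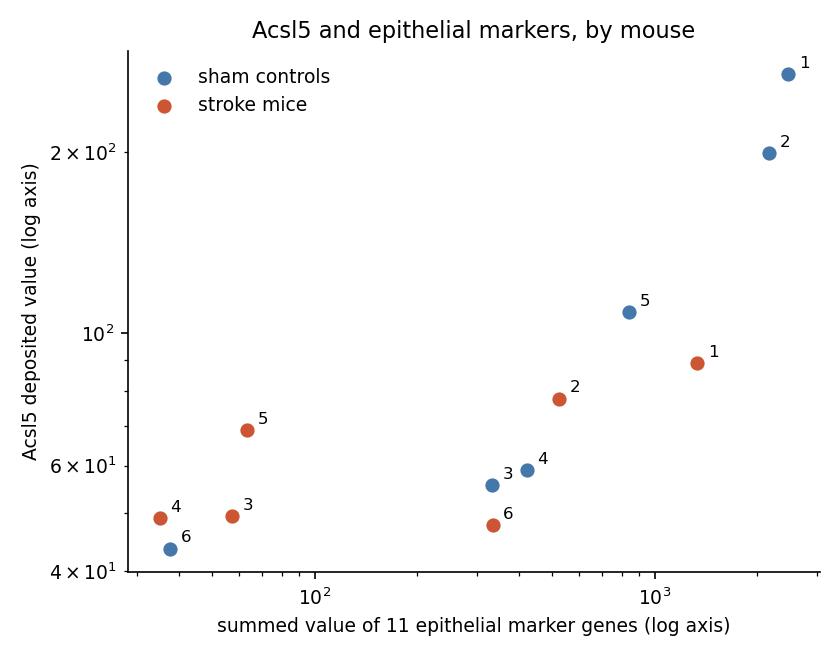
Acsl5 value of each mouse against the sum of 11 intestinal epithelial marker genes, both on log axes, with the number of the mouse in its group. Sham controls 1 and 2 are highest on both axes (Acsl5 at 269.9 and 199.7), as they are for other marker lists, and stroke mouse 5 has an Acsl5 value of 68.9 at a marker sum of 63.4.

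Acsl4, which prefers arachidonic acid and other polyunsaturated chains, ranged from 7.38 to 13.6 with a median of 12.1 in sham controls, and from 7.74 to 11.9 with a median of 9.60 in stroke mice. All 6 stroke mice lay below the sham median, and 3 sham controls lay above every stroke mouse, but sham control 6 was the lowest of all mice. The log2 fold change was -0.22 (SE 0.15), with an exact permutation p of 0.175. Acsl1, the main synthetase of liver and fat, ranged from 10.2 to 14.9 in sham controls (median 10.8) and from 9.62 to 23.8 in stroke mice (median 11.4). Its log2 fold change was 0.10 (SE 0.20) with an exact permutation p of 0.725, and stroke mouse 5 alone stood above all sham controls. Without stroke mouse 5 the log2 fold change of Acsl1 was -0.08.

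The balance among the synthetases was also examined as a share of their summed level, since any scaling shared by the genes of 1 mouse cancels in a share. Acsl3 made up 2.12% to 16.5% of the sum of Acsl1, Acsl3, Acsl4 and Acsl5 in sham controls and 5.31% to 12.0% in stroke mice. The difference of the means, -1.91 percentage points, was not significant (exact two-sided permutation p = 0.446). It ran from -0.82 points without sham control 3 to -3.70 points without sham control 1. Without sham controls 1 and 2, a change made after seeing the data, it was -5.04 points, but these mice had the lowest Acsl3 shares of the sham controls (2.12% and 7.46%), so that leaving them out had to widen the difference. As the log2 ratio of Acsl3 to the other synthetases, in all 12 mice, the difference was -0.07 (exact permutation p = 0.918). Acsl5 took 58.9% to 88.8% of this sum in sham controls, highest in mice 1 and 2. With Acsl5 left out of the sum, a change made after seeing the data, sham controls had an Acsl3 share of 36.3% ± 9.10 (SD, n = 6) and stroke mice one of 27.01% ± 3.28 (SD, n = 6). This difference of -9.25 points had an exact two-sided permutation p of 0.0433, and all 6 stroke mice lay below the sham mean. As Acsl3 was already known to be lower in these data when this sum was chosen, this p is no independent support. Sham control 1, at 18.9%, was the lowest of all mice.

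None of the genes of the synthesis steps was called over all 12 mice. Fasn, which carries out the chain-building steps, ranged from 23.3 to 43.1 in sham controls (median 34.8) and from 24.2 to 34.5 in stroke mice (median 28.2). All 6 stroke mice lay below the sham median and 3 sham controls lay above all stroke mice, but sham control 6 was again the lowest of the 12. The log2 fold change of Fasn was -0.23 (SE 0.15), a level of 0.853 times that of sham controls, with an exact permutation p of 0.143. Acly had medians of 54.1 in sham controls and 48.9 in stroke mice, and a log2 fold change of -0.01 (95% interval -0.34 to 0.33). Of the sham controls, 5 lay between 47.2 and 59.5 and sham control 6 lay at 30.7. Acaca had medians of 37.3 and 37.6, and a log2 fold change of 0.00 (95% interval -0.31 to 0.31). Its highest values were in sham control 2 (54.2) and stroke mouse 5 (54.5), and the sign of its fold change turned under several alternatives, as did that of Acly. Of the 31-base words of Acaca transcripts, 31.7% also occur in the pseudogene Gm5182, which was itself listed at no more than 0.10 in any mouse, so the level of Acaca is less certain than those of Fasn and Acly, which shared none.

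The desaturase genes had lower medians in stroke mice but overlapped widely. Scd1 ranged from 129 to 521 in sham controls (median 427) and from 193 to 393 in stroke mice (median 268). Here 4 sham controls, mice 1 to 4, lay above every stroke mouse, whereas sham controls 5 and 6 were at 238 and 129. The log2 fold change of Scd1 was -0.27 (SE 0.31) with an exact permutation p of 0.465, and it ran from -0.54 to -0.14 with 1 mouse left out. Scd2 ranged from 26.2 to 41.3 in sham controls (median 36.2) and from 27.0 to 35.9 in stroke mice (median 31.6), with a log2 fold change of -0.16 (SE 0.13) and an exact permutation p of 0.188. Scd1 and Scd2 are closely related neighbours on chromosome 19, yet their transcripts shared only 253 of the 31-base words, of 4880 in Scd1 and 5461 in Scd2. With any other gene, 8.18% of the words of Scd1 and 6.81% of those of Scd2 were shared, most of them with Scd3. The share of Scd1 in the sum of Scd1 and Scd2 averaged 90.03% in sham controls (SD 3.90) and 89.7% in stroke mice (SD 2.47). This was a difference of -0.36 points with an exact permutation p of 0.848. Fads1 was low in all mice, at 0.99 to 3.37 in sham controls (median 2.71) and 1.18 to 3.90 in stroke mice (median 2.23). With a filter on the mean in place of the lowest mouse, its log2 fold change was -0.08 (SE 0.26), and the exact permutation p was 0.788.

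In all, 1 of the 9 tested members was lower and none was higher at an unadjusted limma p under 0.05, compared with 1.69% and 4.42% of all genes tested. With so few members, 1 call is not a share that can be told from the background. No member passed an adjusted limma p of 0.05, nor did any of the 12590 genes (0% called), although 770 had an unadjusted p under 0.05. The paper used another test, sleuth, on its own transcript estimates. It reports genes that passed an adjusted threshold and names Acsl3 among the reduced ones. For no member did the groups separate fully, compared with 0.437% of all genes tested. The log2 fold change was negative in 7 of the 9 members and in 48.6% of all genes tested, with medians of -0.22 and 0.01. After rescaling to the same total, and likewise without immunoglobulin genes, the median of the members was -0.10, beside 0.13 and 0.12 over all genes. Without sham control 3 it was -0.14.

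The count of members lower depended most on sham control 6. This mouse had the lowest value of the 12 for 6 of the 10 members (Acsl4, Acsl5, Fasn, Acly, Scd1 and Scd2), and it also had the lowest total. After median-of-ratios scaling, it was the lowest for 2 members. Without it, 6 of the 9 tested members were lower in stroke mice at an unadjusted limma p under 0.05, compared with 9.2% of all genes tested in the same fit. With their log2 fold changes in that fit they were Acsl3 (-0.70), Acsl4 (-0.34), Acsl5 (-0.88), Fasn (-0.33), Scd1 (-0.54) and Scd2 (-0.24). Sham control 6 was the lowest sham control for all of these but Acsl3, for which only sham control 1 was lower. Leaving it out thus had to make these fold changes more negative, so the count of 6 is no separate support for lower levels. None of the members passed adjustment in that fit either. Across all genes, the number lower went from 213 to 1158 when this mouse was left out. Sham control 6 also had the lowest plasma cell marker sum, 295 against 372 to 1486 in the other mice, and low epithelial markers (37.6), and the part of these in the members' values was not tested. Without sham controls 1 and 2 instead, the median log2 fold change of the members was -0.06, and Acsl3 was the only member called.

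**Figure D4:**
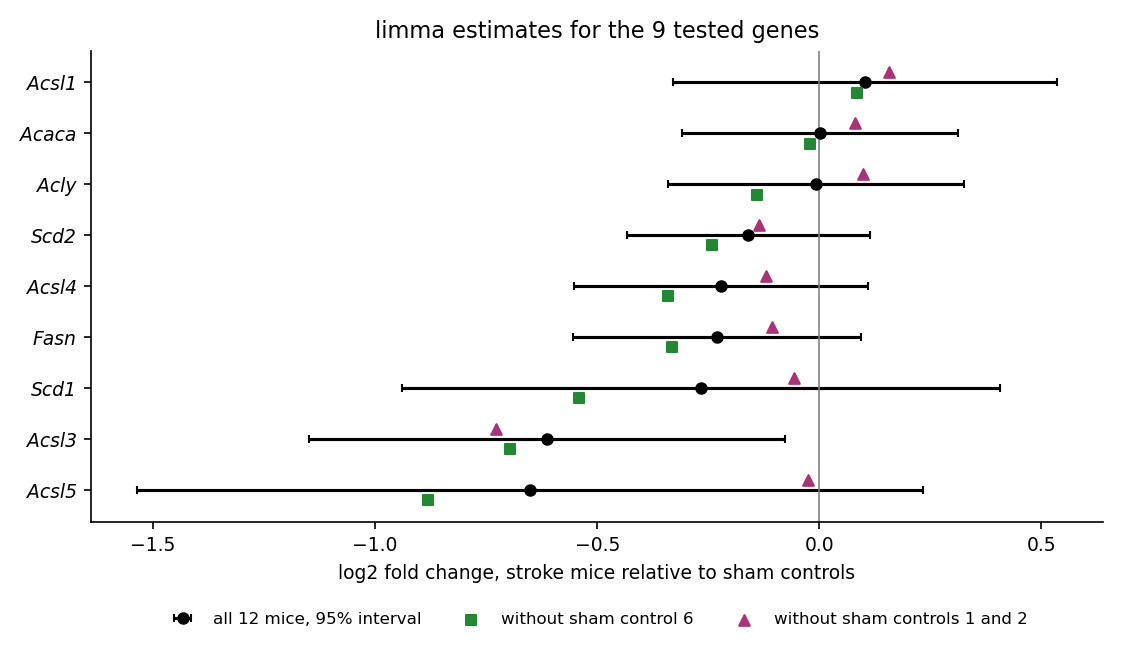
Log2 fold change of stroke mice relative to sham controls for the 9 tested members, with the 95% interval from limma over all 12 mice (black), without sham control 6 (squares) and without sham controls 1 and 2 (triangles). Acsl3 lies between -0.73 and -0.61 in these 3 fits, but ran from -0.80 to -0.52 with any 1 mouse left out. Sham controls 1 and 6 had the lowest Acsl3 values of the sham controls. Acsl5 moves from -0.88 to -0.03, as sham control 6 had its lowest value and sham controls 1 and 2 its highest.

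Other genes of lipid metabolism were followed in 6 lists chosen by role, with 106 genes, of which 78 were tested. At an unadjusted limma p under 0.05, 3 were lower and 5 were higher in stroke mice, compared with 1.69% and 4.42% of all genes tested, and none passed adjustment (adjusted limma p from 0.716 to 0.791 for the 8 genes). The exact permutation p-values given with these genes are for single genes, without adjustment. Of 5 tested genes that supply acetyl-CoA and malonyl-CoA, none was called. The citrate carrier Slc25a1, the most abundant of them, had medians of 22.4 in sham controls and 24.9 in stroke mice (log2 fold change 0.10, exact permutation p = 0.697). Of 7 tested genes of elongation and desaturation, the elongase Elovl1 was lower. It ranged from 23.4 to 28.6 in sham controls and from 9.40 to 24.6 in stroke mice, with 4 stroke mice below every sham control (log2 fold change -0.47, exact permutation p = 0.0130). Without stroke mouse 5 the log2 fold change of Elovl1 was -0.28, and the call was lost under 7 of 24 alternatives, among them rescaling to the same total (-0.35) and leaving out sham controls 1 and 2 (-0.47). Of 13 tested genes among other synthetases, thioesterases and acyl carriers, none was called. Dbi, which carries acyl-CoA, had medians of 90.4 and 60.2 (-0.33, exact permutation p = 0.496), and its log2 fold change ran from -0.67 to -0.10 with 1 mouse left out.

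Of 17 tested genes of glycerolipid assembly, Gpat3, which starts the assembly of triglycerides, was lower in stroke mice. Its values ran from 2.78 to 15.6 in sham controls and from 3.37 to 7.56 in stroke mice (log2 fold change -0.74, exact permutation p = 0.0606), and without sham controls 1 and 2 its log2 fold change was -0.34 and it was not called. The call of Gpat3 was lost under 10 of 24 alternatives. Of 18 tested genes of mitochondrial fatty acid oxidation, which use the products of the Acsl enzymes, 3 were higher and none was lower. Cpt1a, the gatekeeper enzyme that moves acyl chains toward the mitochondrial matrix, ranged from 31.95 to 53.2 in sham controls (median 45.7) and from 53.0 to 75.6 in stroke mice (median 65.7). Only at the edge did the groups meet, and the log2 fold change was 0.53 (SE 0.15, exact permutation p = 0.00433). Slc25a20, the carnitine carrier of the inner membrane, ranged from 14.6 to 23.1 in sham controls and from 21.8 to 25.4 in stroke mice (0.40, SE 0.12, exact permutation p = 0.00433). Etfdh, which passes electrons from this pathway to ubiquinone, was at 14.8 to 18.5 in sham controls and at 19.1 to 28.0 in stroke mice (0.29, SE 0.12). It was the only one of these genes whose groups did not overlap, as was the case for 0.437% of all genes tested. Any such gene reaches the smallest p that the design allows (exact permutation p = 0.00216). Cpt1a and Slc25a20 passed the unadjusted threshold under all 24 alternatives, and Etfdh under 20 of them. Yet the log2 fold change was below 0 for 11 of the 18 oxidation genes, with a list median of -0.08.

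Of 18 tested genes of transcriptional control, 1 was lower and 2 were higher. Srebf2, the SREBP factor best known for the sterol genes, ranged from 71.6 to 170.1 in sham controls (median 125) and from 82.9 to 94.8 in stroke mice (median 87.2). Here 5 sham controls lay above all stroke mice and sham control 6 lay below them (-0.45, SE 0.17, exact permutation p = 0.0303). Without sham controls 1 and 2 the log2 fold change of Srebf2 was -0.35 and it was not called. Mlxip, a glucose-sensing factor, ranged from 51.7 to 95.8 in sham controls (median 63.4) and from 82.0 to 249.96 in stroke mice (median 107), with stroke mouse 5 the highest. Its log2 fold change was 0.79 (SE 0.25, exact permutation p = 0.0130), and without stroke mouse 5 it was 0.58 and the call was kept. Usf2, a factor that binds lipogenic promoters, was higher by 0.27 on the log2 scale, at the edge of the limma threshold (exact permutation p = 0.0303), and lost the call under 18 of 24 alternatives.

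**Figure D5:**
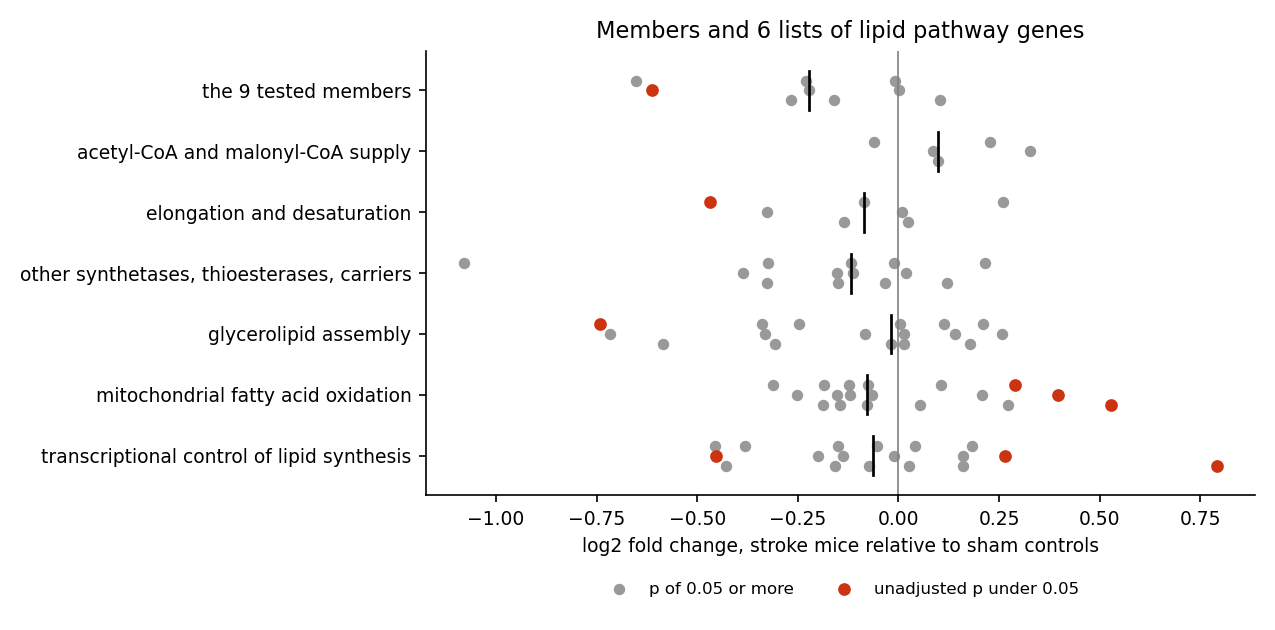
Log2 fold changes of the 9 tested members and of the 78 tested genes in 6 lists of lipid pathway genes, with the median of each list as a black line and genes at an unadjusted limma p under 0.05 in red. The median is -0.22 for the members and -0.08 for mitochondrial fatty acid oxidation, where Etfdh, Slc25a20 and Cpt1a lie to the right.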

How the data were processed

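RNA-seq of PP B cells from 6 sham controls and 6 stroke mice was analysed from 1 deposited table. According to the methods and the submitters' processing notes, the authors trimmed reads with Trimmomatic 0.39 and estimated transcript levels with kallisto 0.48.0 (Ensembl release 102, GRCm38), and tested genes with sleuth 0.30.0 in R 4.1.2. The authors deposited 1 expression signal per gene, labelled as normalized TPM. The column sums differ, so the values were treated as a signal, whereas the tests had been planned for plain TPM. No counts are given, so the depth is unknown and no counting interval can be had.

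From the table, log2(value + 0.5) was fitted with limma 3.58.1 in R 4.3.3 over 12590 genes, those at 1 or more in all 12 mice, without covariates, with Benjamini-Hochberg adjustment over all of them. A fold change on this scale understates that of low genes. Single values and shares were compared by exact two-sided permutation tests over 924 assignments of the mice, which allow a smallest p of 0.00216; 3 shares were tested, 1 of them added after seeing the data. The genes named were all members, each list gene at an unadjusted p under 0.05 (or the most abundant where none was), and the 5 genes most like Acsl3. Members and lists were chosen with earlier results of these data known. Gene positions and shared 31-base words come from GENCODE M21. Mice of both groups are numbered 1 to 6, and p-values measure the spread between these samples. Alternatives were other pseudocounts, filters and scalings, a replicate block, quality weights, an intensity trend and leaving out mice. No mouse was left out of the main values. A further gene of the planned B cell markers is not reported here.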

Additional observations from a re-analysis of the deposited data

Results flagged for a closer look

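Among 46 groups of 6 mice examined (the 10 members, other named genes and shares, in each group), 7 held a mouse that stood far from the rest. Chance alone flags about 1 in 20 groups where values are normally spread and the groups independent. Neither was tested for these values, and several of the flags came from stroke mouse 5, so 7 of 46 cannot be set against that rate. Among the members, Acsl1 was at 23.8 in stroke mouse 5, against 9.62 to 13.0 in the other stroke mice. Acaca was at 54.2 in sham control 2, against 36.0 to 40.2 in the other sham controls. Stroke mouse 5 also stood apart for Mlxip, at 249.96 against 82.0 to 128 in the others, and for Etfdh, at 28.0 against 19.1 to 22.3. Gpat3 was at 7.56 in stroke mouse 1, against 3.37 to 4.41. Slc25a20 was at 21.8 in stroke mouse 4, against 24.1 to 25.4, and Etfdh was at 14.8 in sham control 4, against 17.1 to 18.5. Stroke mouse 5 had the lowest summed B cell markers of the 12 mice, and the part of this in its values was not tested.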

How the results depend on the processing

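Across 20 named genes, 375 of 457 alternative fits kept the direction and the side of the unadjusted threshold of 0.05, 51 lost a call, 8 gained one and 23 turned the sign, all in genes that were not called. No member passed adjustment in any fit. Unless a cause is given, the cause of a change was not tested.

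The count of members lower was 0 after rescaling to the same total and 0 with immunoglobulin genes removed, 2 with the replicate block (Acsl3 and Acsl5), 3 with sample quality weights (Acsl3, Acsl4 and Scd2) and 0 to 6 when 1 mouse was left out, the 6 being without sham control 6. Over all genes, 213 were lower. This became 69 after rescaling, 67 without immunoglobulin genes, 327 after quantile normalization, 404 with the block, 703 with weights, 350 with no filter (more genes tested), 139 without sham controls 1 and 2 and 144 to 1158 with 1 mouse left out. Of all genes, 557 were higher, and 348, 347, 866 and 1418 after rescaling, without immunoglobulin genes, with weights and with no filter, and 396 to 937 with 1 mouse left out, the most without sham control 6. The split of calls, 557 higher and 213 lower, thus moved both ways with the scaling: to 348 and 69 after rescaling and 347 and 67 without immunoglobulin genes, but to 407 and 316 with median-of-ratios scaling and 378 and 327 after quantile normalization. Without sham control 6 it turned, to 937 and 1158. List genes lower numbered 3, but 1 after rescaling, 1 without immunoglobulin genes, 5 after quantile normalization, 9 with the block, 9 with weights, 1 without sham controls 1 and 2, and 1 to 11 with 1 mouse left out. List genes higher numbered 3 to 6 with 1 mouse left out.

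The sign of Acaca turned with median-of-ratios scaling (-0.022) and weights (-0.032), and ran from -0.089 to 0.089 with 1 mouse left out. The sign of Acly turned after rescaling (0.12), without immunoglobulin genes (0.11), after quantile normalization (0.0076) and without sham controls 1 and 2 (0.10), and ran from -0.14 to 0.048 with 1 mouse left out. Acsl1 turned with weights (-0.079) and ran from -0.077 to 0.18, Slc25a1 ran from -0.062 to 0.22, and Dbi was at 0.16 without sham controls 1 and 2. The difference in the Acsl3 share was -9.25 points with Acsl5 left out and -5.04 without sham controls 1 and 2 (exact permutation p = 0.0190), both chosen after seeing the data, the second by leaving out the sham controls with the lowest shares. As a planned log2 ratio to the other synthetases it was -0.07 (exact permutation p = 0.918). The difference in the Scd1 share was 0.86 without those mice and ran from -1.74 to 0.49 with 1 mouse left out.

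Same-numbered mice deviated together in 4 of 6 pairs (correlation over 0.1, with a mean of 0.218 against -0.0414 for other pairs). Of the sham controls, 2 of 6 correlated best with their own number. The paper states that its data were combined from several independent experiments, but the labels do not say which mice shared one. What the numbers stand for is not given either, so they were not taken to pair the mice, and a shared batch was not tested. The replicate block kept Acsl3 (-0.61) and added Acsl5 (-0.65) to the members called. The block left the share differences at -1.91 and -0.36 points.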
